A study of Mus musculus with 21 samples.

Results

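The comparison set macrophages that carried the monocyte and neutrophil surface antigen Ly-6B late in peritonitis against the macrophages that live in the undisturbed peritoneal cavity. Its members were 6 of the 21 arrays of the series: 3 of F4/80 medium to high, Ly-6B+ macrophages taken 168 h after zymosan (called Ly-6B+ macrophages here) and 3 of F4/80 high, CD11b high macrophages from naive mice (called resident macrophages). Zymosan, made from the cell wall of yeast, is engulfed by phagocytes and was injected into the peritoneal cavity. All mice were female C57BL/6 animals of 7 to 8 weeks, with no transgene or deletion named in the labels. Cells were washed from the cavity, stained and sorted, and total RNA was amplified in 2 cycles from 100 ng before hybridisation to an Affymetrix mouse array. The labels call the 3 arrays of a group biological replicates and do not say how many mice gave cells to each. The other groups, 3 arrays each, were Ly-6B+, Ly-6G- bone marrow monocytes of naive mice, Ly-6B+, Ly-6G- monocytes at 4 h, Ly-6B+ or Ly-6B low, Ly-6G- cells at 18 h, F4/80+, CD11b+ macrophages at 72 h and F4/80 high, Ly-6B- macrophages at 168 h. They were used for the spread of each gene and as a frame for its levels.

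Resident peritoneal macrophages are long-lived cells that maintain themselves in the cavity and depend on the transcription factor GATA6 and on retinoic acid, a vitamin A product. They take up dying cells and B-1 cells depend on the chemokine CXCL13 that they make. Monocytes leave the bone marrow through the chemokine receptor CCR2, enter inflamed tissue and can turn into macrophages, and those that do so in the cavity take on resident features only slowly. A well described trait of young monocyte-derived macrophages of serous cavities is a higher display of MHC class II, the molecules that present peptides to CD4+ T cells. F4/80, encoded by Adgre1, and Ly-6B were used to sort the cells, so a difference in them describes the gates. Bulk samples cannot tell a change in RNA per cell from a change in the share of cells that hold it.

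Values are MAS5 signals, a linear brightness per probe set that the deposited table scales to the same trimmed mean of 500 on every array. The median signal over all probe sets ran from 79.2 to 93.0 on the 3 Ly-6B+ arrays and from 84.8 to 87.1 on the 3 resident arrays. The ratio of the 3' to the 5' probe set of Gapdh, which rises as RNA shortens, was 2.17 to 2.89 on the Ly-6B+ arrays and 2.04 to 2.29 on the resident arrays. Genes of any macrophage were bright in both groups. Of 12 macrophage identity genes tested, 0 passed the call rule of the limma fit described below, and 4 had an unadjusted p under 0.05. Without Ly-6B+ array 2 or without resident array 1, 1 of them was called lower. The summed signal of the 12 was 151600 to 173600 on the Ly-6B+ and 182100 to 202400 on the resident arrays. Cd68, a glycoprotein of macrophage endosomes, read 6550.2, 10765 and 9401 on the Ly-6B+ and 13771, 18631 and 17864 on the resident arrays, a difference of -0.93 ± 0.21 (SE; adjusted p = 0.00597) that was just short of 2-fold. The receptor for macrophage colony-stimulating factor, Csf1r, read 25531, 28559 and 31917 on the Ly-6B+ and 30213, 31108 and 34661 on the resident arrays. The lysozyme gene Lyz2 read 24597, 28506 and 30853 on the Ly-6B+ and 26602, 27572 and 29998 on the resident arrays. Adgre1, the gene of the gating antigen F4/80, read 24049, 23626 and 21068 on the Ly-6B+ and 33763, 36328 and 36602 on the resident arrays, a difference of -0.64 ± 0.11 (SE; adjusted p = 0.000675) on the log2 scale that did not reach 2-fold. The Ly-6B+ arrays were all below the resident arrays for Adgre1 and overlapped with them for Csf1r and Lyz2.

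Differences are given as the log2 fold change of Ly-6B+ minus resident macrophages, taken on log2(signal + 15), with the SE of a limma fit over all 21 arrays and a p adjusted over all 12155 genes tested by Benjamini-Hochberg. The added 15 shrinks the change of dim genes, and the spread is that of all 7 groups. A gene was called when the adjusted p was under 0.05 and the change at least 2-fold. By this rule 231 genes were higher in Ly-6B+ macrophages (1.9% of those tested) and 287 were lower (2.36%). These shares are the background for the count of called genes in each list. An unadjusted p under 0.05 was found for 2616 of the 12155 genes, which is the background for list counts by that measure. The median over all genes tested was -0.029. The 3 arrays of one group lay wholly above or below the 3 of the other for 27.9% of all genes tested, for 229 of the 231 genes called higher and for all 287 called lower. Where leaving out 1 of the 6 arrays cost a gene its call, the log2 difference without that array is given after the first. Large losses outnumbered large gains: 32 of the genes called lower and 10 of those called higher changed by at least 8-fold. Words such as loss, gain, fall and drop name a difference between the groups, not a change in the same cells over time.

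**Figure D1:**
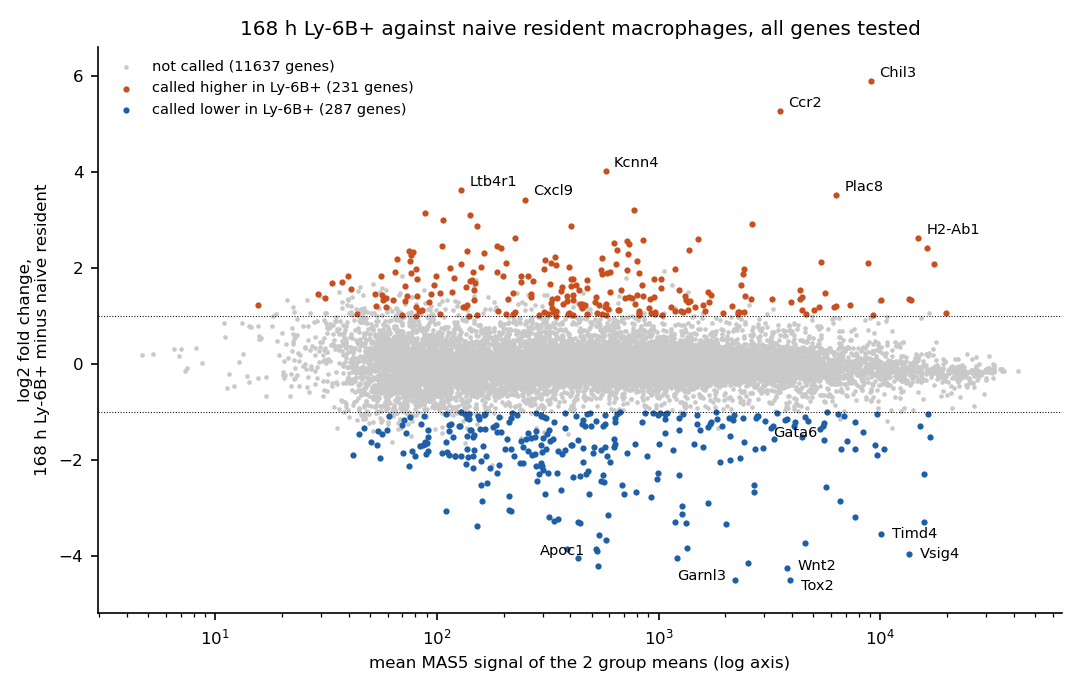
Each point is 1 of the 12155 genes tested; the x axis gives the mean of the 2 group means of MAS5 signal on a log axis and the y axis the log2 fold change of 168 h Ly-6B+ minus naive resident macrophages, with dotted lines at 2-fold. The 231 genes called higher are orange and the 287 called lower are blue; Chil3 and Ccr2 stand at the top, and Tox2, Garnl3 and Wnt2 at the bottom.

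Chil3 and Ccr2 led the genes that were higher. Chil3 encodes the secreted chitinase-like protein Ym1, which monocytes and alternatively activated macrophages make. Its signal was 21988, 18592 and 13034 on the Ly-6B+ and 241, 362 and 250.3 on the resident arrays. This was 62.8 times as much on the mean, and the log2 difference was 5.89 ± 0.41 (SE; adjusted p = 6.02e-09). The lowest Ly-6B+ array was far above the highest resident array. Chil3 has a close relative, Chil4, and the measured signal may not separate them. Ccr2, the receptor that takes monocytes out of the bone marrow, had a signal of 8142, 6546 and 5854 on the Ly-6B+ and 317, 98.4 and 130.0 on the resident arrays, with a difference of 5.27 ± 0.33 (SE; adjusted p = 4.14e-09). Kcnn4, a calcium-gated potassium channel of activated leukocytes, had 1099, 984 and 1209 on the Ly-6B+ and 87.7, 34.5 and 47.6 on the resident arrays, with a difference of 4.02 ± 0.33 (SE; adjusted p = 5.27e-08). None of the 3 genes overlapped between the groups. Over the other groups, the mean Chil3 signal fell from 30178 ± 3718 (SD, n = 3) in bone marrow monocytes to 2085 ± 440.0 in the macrophages at 72 h and 908 ± 687 in Ly-6B- macrophages, so the Ly-6B+ macrophages, at 17871 ± 4519.9, stood nearer to the monocytes. Ccr2 read 12011 ± 2050.5 in bone marrow monocytes, 5288 ± 2687 at 72 h and 160.0 ± 65.4 in Ly-6B- macrophages. The Ly-6B+ mean of Ccr2, 6848 ± 1173, lay within the range of the 3 arrays of 72 h.

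Tox2 and Wnt2 were among the largest losses. Tox2 encodes a DNA-binding protein of the TOX family, and its signal was 324, 398 and 247 on the Ly-6B+ and 8307, 7211 and 7050.4 on the resident arrays, a difference of -4.50 ± 0.31 (SE; adjusted p = 6.02e-09). Wnt2, a secreted Wnt ligand, read 335, 541 and 265 on the Ly-6B+ and 7462, 7041 and 7060.2 on the resident arrays, a difference of -4.25 ± 0.44 (SE; adjusted p = 1.4e-06). Every Ly-6B+ array was more than an order of magnitude below every resident array for both genes. Their means were 4108 ± 994 (SD, n = 3) for Tox2 and 4599.8 ± 1497 for Wnt2 at 72 h, and 7405 ± 2576 and 6990.0 ± 845 in Ly-6B- macrophages, close to the resident means of 7523 ± 684 and 7188 ± 238. In bone marrow monocytes they were 102 ± 56.7 and 19.4 ± 20.1. Of the groups taken after 18 h, the Ly-6B+ macrophages alone were far below the resident level in both genes.

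The rest of the 12 largest gains follow. Plac8, a small cysteine-rich protein of monocytes and other myeloid cells, read 11363, 13626 and 9704 on the Ly-6B+ and 603, 1462 and 1092 on the resident arrays, a difference of 3.51 ± 0.26 (SE; adjusted p = 1.33e-08). The leukotriene B4 receptor gene Ltb4r1 read 317, 175 and 260.5 on the Ly-6B+ and 4.70, 7.96 and 5.86 on the resident arrays, a difference of 3.62 ± 0.26 (SE; adjusted p = 1.33e-08). Its resident values lay below the 80.6 that is the median of the whole table, so the size of that change is uncertain. Coro1a, which encodes an actin-binding protein of leukocytes, read 5138, 4819 and 4069 on the Ly-6B+ and 660.0, 774 and 437 on the resident arrays, a difference of 2.91 ± 0.32 (SE; adjusted p = 3.42e-06). Cnn3, an actin-binding calponin, read 1558, 1544 and 1111 on the Ly-6B+ and 107, 199 and 123 on the resident arrays, a difference of 3.19 ± 0.25 (SE; adjusted p = 3.39e-08). The remaining members of the leading 12 were the chemokines Cxcl9 (3.42 ± 0.75, adjusted p = 0.00472) and Ccl5 (3.00 ± 0.40, adjusted p = 3.28e-05), the membrane protein gene Ms4a4c (2.87 ± 0.32, adjusted p = 3.42e-06), Wfdc21 (3.14 ± 0.50, adjusted p = 0.000205) and E230016K23Rik (3.09 ± 0.35, adjusted p = 3.96e-06). Wfdc21, E230016K23Rik, Ccl5 and Cxcl9 were at or below 78.2 on every resident array.

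The 12 largest losses held no general macrophage gene. Garnl3, which encodes a protein with a domain that acts on small GTPases, read 140.4, 279 and 129 on the Ly-6B+ and 4028, 4334 and 4345 on the resident arrays, a difference of -4.50 ± 0.31 (SE; adjusted p = 6.02e-09). Vsig4, the complement receptor CRIg of resident tissue macrophages, read 1348, 2477 and 1220.1 on the Ly-6B+ and 24740.4, 24058 and 27039 on the resident arrays, a difference of -3.97 ± 0.42 (SE; adjusted p = 1.93e-06), 15 times less on the mean. Fscn1, the actin-bundling protein fascin, read 284, 251 and 215 on the Ly-6B+ and 6811, 3444 and 4249.9 on the resident arrays, a difference of -4.14 ± 0.36 (SE; adjusted p = 1.36e-07). The Ly-6B+ arrays were far below the resident arrays for these 3 genes, and Vsig4 still had a signal of over 1000 on each. The scaffold gene Shank3 (-4.21 ± 0.33, adjusted p = 3.28e-08), the adhesion gene Prtg (-4.04 ± 0.46, adjusted p = 4.79e-06), Asz1 (-4.04 ± 0.47, adjusted p = 5.95e-06), the tight junction gene Ocln (-3.89 ± 0.34, adjusted p = 1.23e-07), the lectin gene Cd209b (-3.85 ± 0.37, adjusted p = 4.33e-07) and the apolipoprotein gene Apoc1 (-3.85 ± 0.38, adjusted p = 6.5e-07) fell to Ly-6B+ means between 41.6 and 123. Hdc, the enzyme that makes histamine, completed the 12 with 187, 195 and 113 on the Ly-6B+ and 2158, 2925 and 2463 on the resident arrays, a difference of -3.83 ± 0.53 (SE; adjusted p = 4.9e-05).

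**Figure D2:**
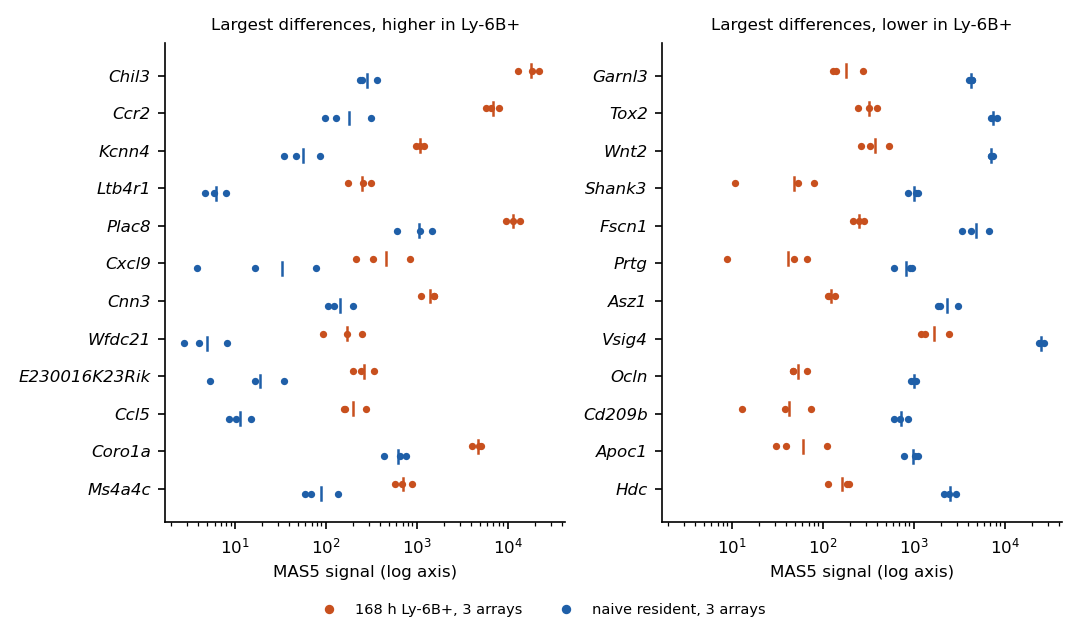
MAS5 signal on a log axis for the 12 genes with the largest gain (left) and the 12 with the largest loss (right) in Ly-6B+ macrophages; each dot is 1 array, orange for 168 h Ly-6B+ and blue for naive resident, and the vertical bar is the mean of 3 arrays. The genes were chosen among called genes with no overlap between the groups, and Chil3 and Ccr2 have the widest gaps on the left.

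Of 17 genes of classical monocytes tested, 6 were called higher and 0 lower, beside 1.9% and 2.36% of all genes, and the median of the 17 was 0.45. The 6 were Chil3, Ccr2, Plac8 and Ms4a4c, described above, together with F13a1 and Cx3cr1. F13a1, the A subunit of coagulation factor XIII, read 13078, 14055 and 16227 on the Ly-6B+ and 6064, 5131 and 5891 on the resident arrays, a difference of 1.34 ± 0.21 (SE; adjusted p = 0.000187). Cx3cr1, the fractalkine receptor, was dim, with 135, 162 and 185 on the Ly-6B+ and 68.6, 27.1 and 19.2 on the resident arrays and a difference of 1.82 ± 0.39 (SE; adjusted p = 0.00404). Other monocyte genes did not differ by this rule. Vcan, the proteoglycan versican, was at 22389.7 at 4 h but read 264, 205 and 145 on the Ly-6B+ and 171, 155 and 191 on the resident arrays, and the fibronectin gene Fn1 was near 29294 in Ly-6B+ and 31743 in resident macrophages. In the Ms4a family of membrane proteins, 3 of 11 tested were called higher: Ms4a4c, Ms4a6b (1.97 ± 0.18, adjusted p = 2.52e-07) and Ms4a6c (1.30 ± 0.20, adjusted p = 0.000125). Napsa, an aspartic protease that was highest in monocytes in this series, at 10019 in bone marrow, was also called higher, with 1292, 1414 and 1096 on the Ly-6B+ and 211, 226 and 198 on the resident arrays and a difference of 2.49 ± 0.27 (SE; adjusted p = 2.59e-06).

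Of 28 genes of resident peritoneal macrophages tested, 14 were lower in Ly-6B+ macrophages and 0 were higher, beside 2.36% and 1.9% of all genes, and the median of the 28 was -1.25. The list draws on what is known of these cells and was put together with earlier results of these data known, so its direction is not independent evidence. The genes that fell most, after Garnl3, Vsig4 and Apoc1, were Timd4, Cxcl13 and Tgfb2. Timd4, a receptor for phosphatidylserine on dying cells, read 1375, 2141 and 1352 on the Ly-6B+ and 18688, 19135 and 18075 on the resident arrays, a difference of -3.54 ± 0.34 (SE; adjusted p = 3.95e-07). Cxcl13, the chemokine that draws B cells, read 2221, 6139 and 1662 on the Ly-6B+ and 26673, 26686 and 30926 on the resident arrays, a difference of -3.30 ± 0.42 (SE; adjusted p = 1.73e-05). Tgfb2, a transforming growth factor, read 1336, 1808 and 1437 on the Ly-6B+ and 14675, 12444 and 14593 on the resident arrays, a difference of -3.18 ± 0.32 (SE; adjusted p = 9.17e-07). All 3 kept signals over 1000 on every Ly-6B+ array and were far under every resident array. Smaller losses were those of the caveolin gene Cav1 (-2.95 ± 0.27, adjusted p = 2.3e-07), the TGF-beta binding protein gene Ltbp1 (-2.85 ± 0.43, adjusted p = 0.000116), Aspa (-2.67 ± 0.33, adjusted p = 1.17e-05), the prostacyclin synthase gene Ptgis (-2.29 ± 0.31, adjusted p = 3.98e-05), P-selectin, Selp (-1.70 ± 0.26, adjusted p = 0.000136), Serpinb2 (-1.53 ± 0.23, adjusted p = 9.57e-05) and coagulation factor V, F5 (-1.29 ± 0.15, adjusted p = 3.96e-06).

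Other genes of the resident list stayed high in Ly-6B+ macrophages. Alox15, the 12/15-lipoxygenase, read 24056, 28327 and 26991 on the Ly-6B+ and 32000.4, 32402 and 36305 on the resident arrays, and its difference of -0.34 ± 0.65 (SE; adjusted p = 0.82) was not called. The adhesion molecule gene Icam2, a common marker of resident peritoneal macrophages, read 15389.7, 17418 and 16834 on the Ly-6B+ and 20971, 21408 and 21729.6 on the resident arrays, a difference of -0.37 ± 0.18 (SE; adjusted p = 0.224). Prg4, or lubricin, read 26269.5, 29152 and 30905 on the Ly-6B+ and 33460.3, 34536 and 38532 on the resident arrays, a difference of -0.30 ± 0.29. Cd5l, a secreted scavenger protein, read 17922, 20968 and 22225 on the Ly-6B+ and 23697, 26581 and 25388 on the resident arrays, a difference of -0.31 ± 0.35. For these 4 genes the Ly-6B+ arrays were all a little lower than the resident arrays, by 1.23- to 1.29-fold on the mean. The bone marrow monocytes were far lower, and their means were 33.4, 1044, 51.8 and 52.3. The difference was wider for the scavenger receptor gene Marco, at 4277, 8448 and 6865 on the Ly-6B+ and 14893, 17016 and 16105 on the resident arrays. Its other probe set was called lower, at -2.18 (adjusted p = 0.00356 over all probe sets). The change of the probe set used, -1.34 ± 0.66 (SE; adjusted p = 0.248), was not called with the spread of all 21 arrays. It was -1.34 ± 0.21 (adjusted p = 0.00326) in a fit on the 6 arrays alone. Over all alternatives its adjusted p ran from 0.00195 to 1, the highest from a test against a 2-fold change. Lrg1 behaved likewise, with a difference of -1.20 ± 0.52 (adjusted p = 0.183), and -1.20 ± 0.21 (adjusted p = 0.00599) on the 6 arrays, with adjusted p from 0.00284 to 1. The fit on the 6 arrays gave 16 of the 28 genes lower in place of 14.

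Gata6 itself was lower. It read 1843, 2121 and 1554 on the Ly-6B+ and 3979, 4778 and 3808 on the resident arrays, 2.28 times less on the mean, with a difference of -1.18 ± 0.20 (SE; adjusted p = 0.000411). The gene's 2 other probe sets were called lower by more, at -1.44 and -2.38. All Ly-6B+ arrays were below all resident arrays, yet the Ly-6B+ mean of 1839.6 ± 283 (SD, n = 3) was far above the bone marrow monocytes, at 47.5, 51.5 and 66.5, and the cells at 18 h, at 239, 214 and 171. Of 12 tested genes of the Gata6 and retinoid list, 5 were lower and 0 higher, with a median of -0.39. Besides Gata6 and Tgfb2 they were 2 enzymes that break down retinoic acid and 1 that makes it. Cyp26a1, which breaks it down, read 68.0, 22.2 and 107 on the Ly-6B+ and 1930.5, 524 and 593 on the resident arrays (-3.58 ± 0.54, adjusted p = 0.000122), and its relative Cyp26b1 differed by -1.36 ± 0.30 (adjusted p = 0.00437). Aldh1a2, which makes it, read 603, 422 and 869 on the Ly-6B+ and 1185, 1362 and 1197 on the resident arrays. Aldh1a2 was at the edge of the rule, at -1.02 ± 0.22 (adjusted p = 0.00456) over all arrays, or -0.77 (adjusted p = 0.0395) without Ly-6B+ array 2 and -0.96 (adjusted p = 0.0242) without resident array 2. The receptors Rara, Rarb, Rxra and Rxrb were not called. The letters AGATAA, a form of the GATA site, stood on either strand in the promoter windows of 3 of the 20 resident list genes that had one (Tgfb2, Serpinb2 and Saa3), beside 12.7% of all 27025 genes with a window, each from 250 bases before to 50 bases after a RefSeq start.

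**Figure D3:**
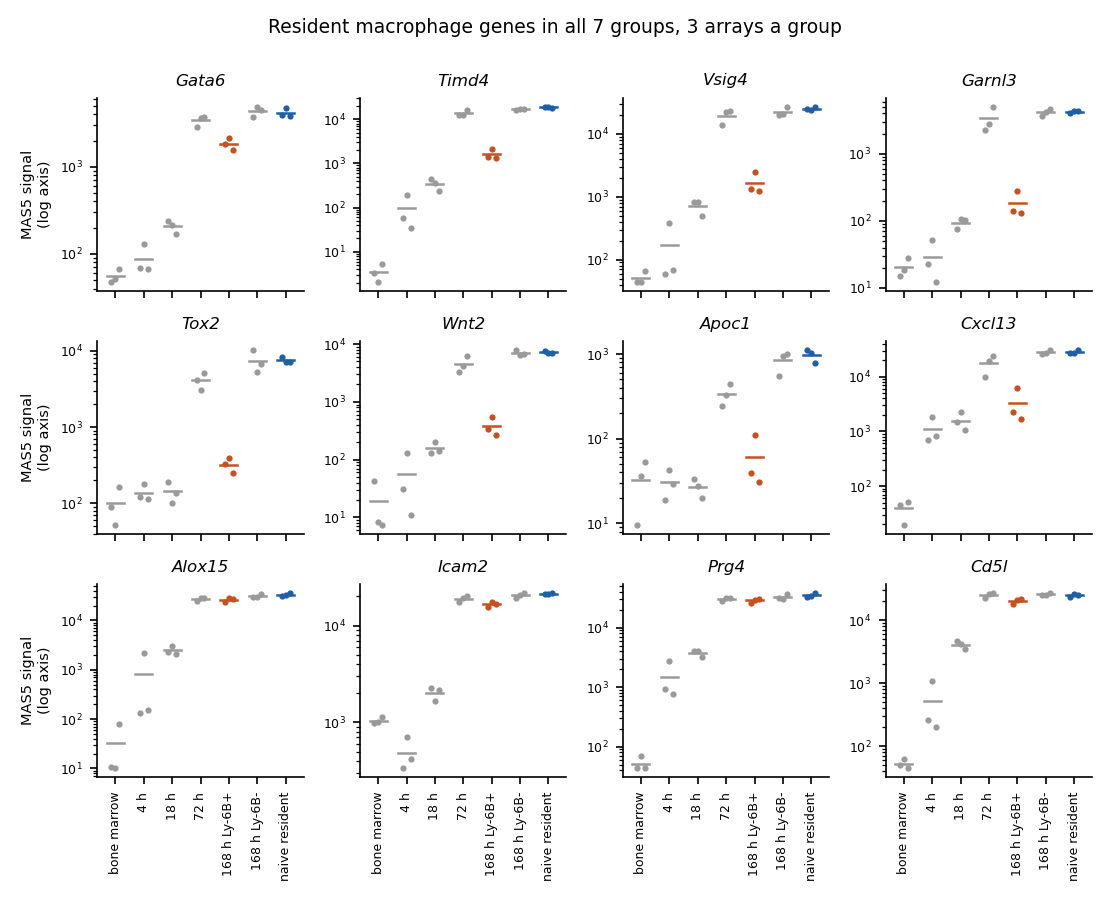
MAS5 signal on a log axis for 12 resident macrophage genes in all 7 groups; each dot is 1 array and each bar the mean of 3, with Ly-6B+ macrophages orange, resident macrophages blue and the other groups grey. Gata6 through Cxcl13 drop in the Ly-6B+ group below the groups on either side of it, whereas Alox15, Icam2, Prg4 and Cd5l stay near the resident level.

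MHC class II genes were higher in Ly-6B+ macrophages. Of 16 genes of the class II presentation list, 6 were called higher and 0 lower, beside 1.9% and 2.36% of all genes, and the median of the 16 was 0.66. H2-Ab1, the beta chain of the classical molecule I-A, read 21249, 25377 and 28108 on the Ly-6B+ and 2141, 7887 and 3877 on the resident arrays, a difference of 2.61 ± 0.33 (SE; adjusted p = 1.37e-05). H2-Eb1, the beta chain of I-E, read 23268, 28041 and 29814 on the Ly-6B+ and 3420.4, 8493 and 4312 on the resident arrays, a difference of 2.42 ± 0.33 (SE; adjusted p = 3.55e-05). Cd74, the invariant chain that guides class II molecules to the endosome, was no member of the list and read 24886, 27318 and 29958 on the Ly-6B+ and 4189.7, 13486 and 4774 on the resident arrays, a difference of 2.08 ± 0.32 (SE; adjusted p = 0.000163). In all 3 genes resident array 2 was the highest and array 1 the lowest of their group, and the Ly-6B+ arrays were close to one another. Ciita, the coactivator that switches the class II genes on, read 374, 479.9 and 384 on the Ly-6B+ and 112, 96.0 and 108 on the resident arrays, a difference of 1.82 ± 0.22 (SE; adjusted p = 9.89e-06). The list gene H2-Ob read 928, 627 and 676 on the Ly-6B+ and 187, 249 and 195 on the resident arrays and differed by 1.74 ± 0.34 (adjusted p = 0.00165). The peptide loading gene H2-DMa read 5793, 10055 and 8669 on the Ly-6B+ and 1828, 4309 and 3012 on the resident arrays and differed by 1.47 ± 0.33 (adjusted p = 0.00526). H2-Aa, the alpha chain of I-A, read 22026, 27985 and 28932 on the Ly-6B+ and 8835, 18820.1 and 11720.1 on the resident arrays, a difference of 1.06 ± 0.22 (SE; adjusted p = 0.00268), or 0.99 (adjusted p = 0.0171) without Ly-6B+ array 3 and 0.81 (adjusted p = 0.027) without resident array 1. Its 3 other probe sets were called higher by more, at 2.02 to 3.03. H2-Ab1, H2-Eb1, Cd74 and Ciita were higher on each Ly-6B+ array than on any of the other 18 arrays of the series.

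The list's genes for endosomal enzymes that prepare peptides did not move with them, whereas the lysosomal protease genes Lgmn and Ctsf, described below, were lower. Ctss, Ctsh and Ifi30 differed by -0.15 ± 0.09, 0.09 ± 0.09 and -0.00 ± 0.18, and the class II promoter factors Rfx5, Rfxank and Rfxap by 0.15 ± 0.17, -0.30 ± 0.23 and 0.20 ± 0.17, none of them called. H2-Oa and H2-DMb2 were not called either, at 0.64 and 0.67 (adjusted p = 0.384 and 0.209 in the limma fit on the 6 arrays alone). Since several class II genes were called in the same direction, promoters of 3 of them are shown. The promoter of a class II gene carries a set of boxes, among them the X box, bound by the RFX factors, and the Y box, bound by NF-Y, on which CIITA acts. The windows below come from RefSeq in build GRCm38.p6, from 250 bases before to 50 after the start, read 5′ to 3′ along the gene, with capitals marking GATTGG (the Y box core) or its reverse complement CCAATC, and CCTAGNNAC (an X box form). They lie on chromosome 17, for H2-Eb1 at chr17:34305617-34305916 on the plus strand, for H2-Aa at chr17:34287774-34288073 on the minus strand and for H2-Ob at chr17:34238655-34238954 on the plus strand.
H2-Eb1: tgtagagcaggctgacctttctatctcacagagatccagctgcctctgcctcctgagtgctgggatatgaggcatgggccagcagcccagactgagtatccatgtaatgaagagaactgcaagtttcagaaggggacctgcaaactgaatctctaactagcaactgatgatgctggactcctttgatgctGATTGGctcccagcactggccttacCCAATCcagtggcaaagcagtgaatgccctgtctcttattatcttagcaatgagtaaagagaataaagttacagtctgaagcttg
H2-Aa: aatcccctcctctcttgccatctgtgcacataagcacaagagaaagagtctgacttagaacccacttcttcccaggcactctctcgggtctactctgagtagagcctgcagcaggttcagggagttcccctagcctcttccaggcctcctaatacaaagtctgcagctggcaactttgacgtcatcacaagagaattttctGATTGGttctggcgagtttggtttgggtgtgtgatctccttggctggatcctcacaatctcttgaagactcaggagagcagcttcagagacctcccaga
H2-Ob: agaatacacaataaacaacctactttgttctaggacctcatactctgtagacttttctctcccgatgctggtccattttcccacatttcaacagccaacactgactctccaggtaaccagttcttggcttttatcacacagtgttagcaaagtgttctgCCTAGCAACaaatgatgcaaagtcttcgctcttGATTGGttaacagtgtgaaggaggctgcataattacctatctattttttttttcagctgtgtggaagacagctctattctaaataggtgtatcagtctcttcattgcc
The Y box letters began 60 and 35 bases upstream of the start in H2-Eb1, 49 in H2-Aa and 58 in H2-Ob, where the X box letters began 91 bases upstream. Of the 6 called list members, 4 had a window and 4 of these held the Y box letters on either strand, H2-DMa at 199 bases upstream of 1 of 2 starts. Over the list 9 of the 11 genes with a window held them, called or not, beside 18.2% of all genes. The X box letters were in 1 of the 11 and in 4.6% of all genes. Only that form was searched, so an X box with other letters is neither marked nor counted. A match describes the letters and is no evidence of binding.

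B cells and dendritic cells also carry class II, so their markers are given beside this result. Of 11 B cell genes tested, 0 were called in the limma fit over all arrays, and 8 had an unadjusted p under 0.05, all higher. Their median was 1.28. The 12 list genes with a probe set summed to 4019 to 5892 on the Ly-6B+ arrays and 1223 to 2012 on the resident arrays. Ms4a1, which encodes CD20, read 1753, 917 and 688 on the Ly-6B+ and 432, 175 and 314 on the resident arrays, a difference of 1.79 ± 0.70 (SE; adjusted p = 0.133). Ighm, the IgM heavy chain, read 2065, 1626 and 1530.3 on the Ly-6B+ and 675, 453 and 520.1 on the resident arrays, a difference of 1.64 ± 0.63 (SE; adjusted p = 0.12). Neither gene overlapped between the groups. In the fit on the 6 arrays alone, 6 of the 11 were called higher, with 1.79 ± 0.37 (adjusted p = 0.0148) for Ms4a1 and 1.64 ± 0.18 (adjusted p = 0.000399) for Ighm. Over all alternatives the adjusted p of these 2 ran from 0.00395 to 1 and from 0.000389 to 1. Of 12 dendritic cell genes tested, Napsa was called higher and Cd209a lower. The median of the 12 was 0.33, and 3 were higher and 1 lower at an unadjusted p under 0.05. The 15 list genes with a probe set summed to 2781 to 3209 on the Ly-6B+ arrays and 1814 to 1952 on the resident arrays. Among the members not called, Dpp4, Btla, Batf3 and Ccr7 differed by 1.22 ± 0.49, 0.73 ± 0.50, 0.84 ± 0.24 and 0.84 ± 0.68, with no overlap between the groups. Such a lack of overlap held for 27.9% of all genes tested. The 2 other probe sets of Dpp4 gave -0.47 and 0.96. Flt3 and Zbtb46 differed by 0.18 ± 0.55 and -0.46 ± 0.34. In the fit on the 6 arrays alone, Kmo, Ffar2, Bst2 and Kit differed by 0.14, -0.12, -0.04 and 0.47. The part of B cells or dendritic cells in the class II result was not tested.

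**Figure D4:**
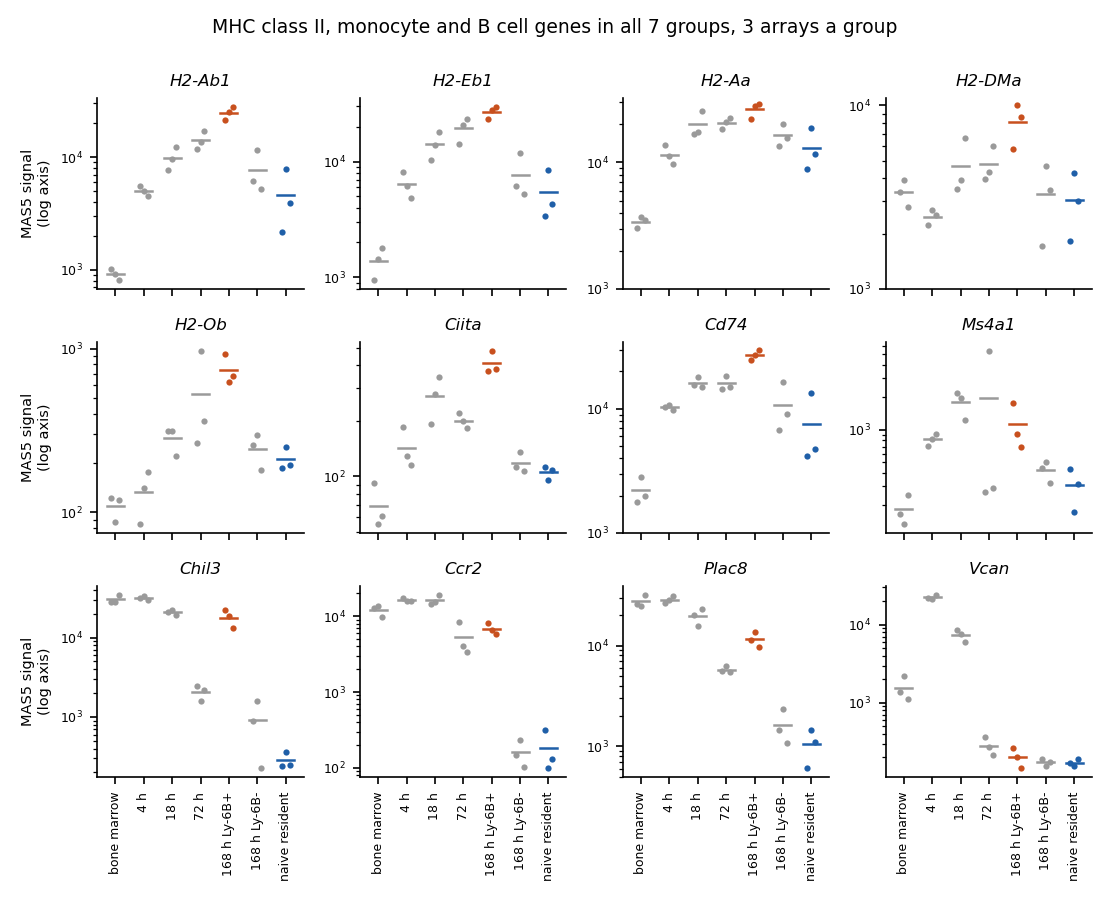
MAS5 signal on a log axis in all 7 groups for 7 MHC class II genes, the B cell gene Ms4a1 and 4 monocyte genes; each dot is 1 array and each bar the mean of 3, with Ly-6B+ macrophages orange and resident macrophages blue. H2-Ab1, H2-Eb1, Ciita and Cd74 are highest on the Ly-6B+ arrays, Chil3, Ccr2 and Plac8 lie between the monocyte and the resident level, and Vcan is low in every group from 72 h on.

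Among 23 CC and CXC chemokines tested, 6 were called higher and 2 lower, beside 1.9% and 2.36% of all genes, with a median of 0.37. Cxcl9, which draws activated T cells, read 214, 853 and 329.9 on the Ly-6B+ and 16.8, 78.2 and 3.85 on the resident arrays, a difference of 3.42 ± 0.75 (SE; adjusted p = 0.00472). Cxcl10, of the same kind, read 413, 1110.2 and 433 on the Ly-6B+ and 102, 194 and 116 on the resident arrays, a difference of 2.02 ± 0.40 (SE; adjusted p = 0.00174). Ccl5 read 164, 281 and 161 on the Ly-6B+ and 15.1, 10.4 and 8.67 on the resident arrays, a difference of 3.00 ± 0.40 (SE; adjusted p = 3.28e-05). Ly-6B+ array 2 was the highest of its group for each of these. The CCR2 ligand gene Ccl2 read 1196, 2974 and 1438 on the Ly-6B+ and 407, 763 and 648 on the resident arrays, a difference of 1.53 ± 0.38 (SE; adjusted p = 0.0116), or 1.14 (adjusted p = 0.0886) without Ly-6B+ array 2 and 1.28 (adjusted p = 0.0797) without resident array 1. Ccl12, another CCR2 ligand, differed by 2.18 ± 0.60 (adjusted p = 0.0247), or 2.28 (adjusted p = 0.0508) without Ly-6B+ array 1, 1.90 (adjusted p = 0.103) without Ly-6B+ array 2, 1.99 (adjusted p = 0.102) without resident array 1 and 1.99 (adjusted p = 0.0909) without resident array 3. Cxcl3 differed by 1.45 ± 0.28 (adjusted p = 0.00171). The losses were Cxcl13, given above, and Cxcl12, which holds stem cells and B cells in place, at 193, 216 and 216 on the Ly-6B+ and 2157, 2053 and 2309 on the resident arrays, a difference of -3.29 ± 0.38 (SE; adjusted p = 5.82e-06).

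Of 20 receptors for chemoattractants, 6 were higher and 1 lower, with a median of 0.025. Ccr2, Ltb4r1 and Cx3cr1 were given above. Fpr2, a formyl peptide receptor that also binds annexin A1, read 6810.2, 8262 and 6914 on the Ly-6B+ and 2722, 3542 and 3419.6 on the resident arrays, a difference of 1.18 ± 0.18 (SE; adjusted p = 0.000111). Ccrl2, which presents chemerin, differed by 1.54 ± 0.40 (adjusted p = 0.0171), or 1.32 (adjusted p = 0.0891) without Ly-6B+ array 2 and 1.17 (adjusted p = 0.126) without resident array 1. The prostaglandin E2 receptor gene Ptger2 differed by 1.12 ± 0.18 (adjusted p = 0.000257), or 0.97 (adjusted p = 0.00293) without Ly-6B+ array 1 and 0.93 (adjusted p = 0.00267) without resident array 2. Ackr3, a decoy receptor for CXCL12, read 913, 565 and 558 on the Ly-6B+ and 3041, 1482 and 2133 on the resident arrays and was lower, at -1.66 ± 0.31 (adjusted p = 0.00126). The inflammatory chemokine receptor gene Ccr1 and the complement receptor genes C3ar1 and C5ar1 were not called, at -0.39 ± 0.13, -0.13 ± 0.17 and -0.19 ± 0.24.

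Genes for the uptake of dying cells changed in both directions. Of 27 tested, 5 were lower and 2 higher, with a median of -0.22. Timd4 was the largest loss. Mfge8, a bridge between phosphatidylserine and integrins, read 756, 699 and 719.6 on the Ly-6B+ and 2697, 2397 and 2284 on the resident arrays, a difference of -1.74 ± 0.14 (SE; adjusted p = 4.17e-08). The integrin gene Itgb3 read 57.1, 129 and 112 on the Ly-6B+ and 548, 562 and 394 on the resident arrays, a difference of -2.22 ± 0.36 (SE; adjusted p = 0.000309). Neither overlapped between the groups. Pros1, the bridging protein S, differed by -1.04 ± 0.17 (adjusted p = 0.000309), or -0.92 (adjusted p = 0.00335) without Ly-6B+ array 2 and -0.93 (adjusted p = 0.00377) without resident array 1, and the scavenger receptor gene Stab1 by -1.25 ± 0.35 (adjusted p = 0.0263), or -1.30 (adjusted p = 0.0553) without Ly-6B+ array 2, -1.12 (adjusted p = 0.0997) without Ly-6B+ array 3, -1.20 (adjusted p = 0.0882) without resident array 1 and -1.22 (adjusted p = 0.0767) without resident array 2. Of the TAM receptors for these bridges, Mertk was not called, at 5579, 4954 and 4806 on the Ly-6B+ and 4944, 3367 and 4543 on the resident arrays and 0.27 ± 0.17. Axl read 1209.6, 1288 and 1344 on the Ly-6B+ and 509.5, 929 and 501 on the resident arrays and was higher, at 1.03 ± 0.23 (adjusted p = 0.00602), or 0.99 (adjusted p = 0.0277) without Ly-6B+ array 3, 0.89 (adjusted p = 0.0461) without resident array 1 and 0.88 (adjusted p = 0.0426) without resident array 3. Itgb5, the other gain, differed by 1.04 ± 0.20 (adjusted p = 0.00172), or 0.97 (adjusted p = 0.0124) without Ly-6B+ array 1, 0.87 (adjusted p = 0.0163) without Ly-6B+ array 3 and 0.95 (adjusted p = 0.0143) without resident array 1. Its 3 other probe sets were called higher by more, at 2.14 to 2.47.

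Of 17 scavenger receptors, 2 were higher and 3 lower, with a median of -0.38. Colec12, a collectin, read 213, 132 and 137 on the Ly-6B+ and 946, 639 and 816 on the resident arrays, a difference of -2.23 ± 0.21 (SE; adjusted p = 2.69e-07). Scarb2, a lysosomal membrane receptor, was lower, at -1.09 ± 0.13 (adjusted p = 6.16e-06), or -0.996 (adjusted p = 9.81e-05) without resident array 3. Stab1 was the third. Mrc1, the mannose receptor CD206, read 3663, 4042 and 6359 on the Ly-6B+ and 2319.7, 1451 and 1646 on the resident arrays and was higher, at 1.35 ± 0.21 (adjusted p = 0.00018). Scarf1, a receptor for dying cells and modified lipoproteins, read 505, 729.6 and 701 on the Ly-6B+ and 173, 266 and 162 on the resident arrays and was higher, at 1.63 ± 0.43 (adjusted p = 0.0182), or 1.54 (adjusted p = 0.0707) without Ly-6B+ array 2, 1.56 (adjusted p = 0.0631) without Ly-6B+ array 3, 1.55 (adjusted p = 0.0725) without resident array 1 and 1.51 (adjusted p = 0.073) without resident array 3. The abundant receptor genes Cd36 and Msr1 were not called, at -0.14 ± 0.24 and -0.26 ± 0.16. In the complement list, Vsig4 was the only one of 16 called, and the C1q genes C1qa, C1qb and C1qc differed by -0.41 ± 0.33, -0.15 ± 0.23 and -0.40 ± 0.28.

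Of 29 lysosomal genes, 3 were lower and 1, Tfeb, was higher, with a median of -0.28. Lgmn, the protease legumain, read 2777, 3856 and 3826 on the Ly-6B+ and 11392, 11446 and 12687 on the resident arrays, a difference of -1.77 ± 0.13 (SE; adjusted p = 2.28e-08). Glb1, the beta-galactosidase of lysosomes, read 3055, 3239.7 and 2734 on the Ly-6B+ and 7315, 7741 and 8151 on the resident arrays, a difference of -1.36 ± 0.13 (SE; adjusted p = 2.77e-07). The cathepsin gene Ctsf read 81.7, 161 and 136 on the Ly-6B+ and 705, 805 and 578 on the resident arrays, a difference of -2.36 ± 0.28 (SE; adjusted p = 7.64e-06). The summed signal of the 29 genes was 247800 to 286900 on the Ly-6B+ arrays and 338800 to 358000 on the resident arrays, with no overlap. Most members moved by less than 2-fold. With no minimum fold, 14 of the 29 were lower at an adjusted p under 0.05, beside 595 of all 12155 genes tested. In lipid handling 2 of 27 were lower, Apoc1 and the fatty acid carrier gene Fabp4, at 4119, 4980.2 and 3183 on the Ly-6B+ and 14362, 15706 and 15380.3 on the resident arrays (-1.91 ± 0.26, adjusted p = 3.55e-05). Apoe was not called, at -0.16 ± 0.13.

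Genes tied to alternative activation were mixed. Of 18 tested, 4 were higher and 1 lower, with a median of 0.19. Chil3 was the largest, and Mrc1 was given above. Retnla, which encodes the secreted RELM-alpha, read 16582, 14737 and 26686 on the Ly-6B+ and 11342, 5056 and 6853 on the resident arrays, a difference of 1.35 ± 0.32 (SE; adjusted p = 0.0076), or 1.09 (adjusted p = 0.0573) without Ly-6B+ array 3 and 1.08 (adjusted p = 0.0581) without resident array 2. Folr2, a folate receptor of macrophages, read 1114, 1960.2 and 3169.7 on the Ly-6B+ and 826, 809 and 876 on the resident arrays, a difference of 1.17 ± 0.28 (SE; adjusted p = 0.00953), or 0.81 (adjusted p = 0.0746) without Ly-6B+ array 3. Ly-6B+ array 3 was the highest for Mrc1, Retnla and Folr2. Arg1, the arginase gene, read 7986, 15943 and 8987 on the Ly-6B+ and 11602, 10509 and 10350.5 on the resident arrays and overlapped between the groups. The lectin gene Cd209a read 132, 143 and 123 on the Ly-6B+ and 394, 339 and 424 on the resident arrays and was lower, at -1.44 ± 0.29 (adjusted p = 0.00245). Without Ly-6B+ array 3 the list had 2 genes higher in place of 4.

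Of 29 pattern recognition genes, 4 were higher and 2 lower, beside 1.9% and 2.36% of all genes, with a median of -0.13. Clec4a2, an inhibitory lectin of myeloid cells, read 1223, 819.8 and 1265 on the Ly-6B+ and 205, 182 and 202 on the resident arrays, a difference of 2.38 ± 0.21 (SE; adjusted p = 1.38e-07). Trem1, a receptor that amplifies inflammation, read 1138, 862 and 780.2 on the Ly-6B+ and 181, 155 and 228 on the resident arrays, a difference of 2.21 ± 0.28 (SE; adjusted p = 1.89e-05). Of the Toll-like receptors tested, 0 were called. Of 20 cytokine genes, 2 were higher and 1 lower, with a median of 0.18. Il1b read 663, 458 and 369 on the Ly-6B+ and 73.0, 202 and 186 on the resident arrays, a difference of 1.67 ± 0.42 (SE; adjusted p = 0.0127), or 1.44 (adjusted p = 0.0732) without Ly-6B+ array 1 and 1.25 (adjusted p = 0.103) without resident array 1. Il6 read 1669, 1609.8 and 876 on the Ly-6B+ and 325, 661 and 574 on the resident arrays, a difference of 1.39 ± 0.34 (SE; adjusted p = 0.00959), or 1.23 (adjusted p = 0.0552) without Ly-6B+ array 1, 1.26 (adjusted p = 0.0518) without Ly-6B+ array 2 and 1.09 (adjusted p = 0.078) without resident array 1. Resident array 1 was the lowest resident array for both. Tnf and Il10 were not called, at 1.16 ± 0.50 and 0.72 ± 0.38, and Tgfb2 was the only loss.

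Resident array 1 was also the lowest of its group for several induced genes. Ptgs2, the inducible cyclooxygenase, read 1563, 1398 and 627 on the Ly-6B+ and 72.4, 329 and 401 on the resident arrays, a difference of 2.28 ± 0.46 (SE; adjusted p = 0.00225). Acod1, which makes itaconate, read 782, 2555 and 1042 on the Ly-6B+ and 110.5, 458 and 159.8 on the resident arrays, a difference of 2.57 ± 0.52 (SE; adjusted p = 0.00243). The immediate early gene Atf3 read 8432, 10626 and 10727 on the Ly-6B+ and 2118, 5446 and 6466 on the resident arrays, a difference of 1.23 ± 0.29 (SE; adjusted p = 0.0079), or 0.73 (adjusted p = 0.0454) without resident array 1. Over the 18 genes of handling stress, Atf3 alone was called, and the median was 0.25. The summed signal was 196500 to 220100 on the Ly-6B+ arrays and 148600 to 196900 on the resident arrays, and its part in these results was not tested. Ptgs2 and Acod1 stayed called with each array left out in turn.

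Of 17 genes of costimulation and inhibition, 2 were higher and 1 lower, with a median of -0.011. Cd274, the ligand PD-L1, read 1109, 1571 and 1179 on the Ly-6B+ and 344, 442 and 405 on the resident arrays, a difference of 1.65 ± 0.37 (SE; adjusted p = 0.00527). Tnfsf13b, the B cell survival factor BAFF, read 367, 373 and 353 on the Ly-6B+ and 1347, 1001 and 1237 on the resident arrays and was lower, at -1.66 ± 0.30 (adjusted p = 0.000879). Tnfsf9, the ligand of 4-1BB, was higher, at 1.52 ± 0.37 (adjusted p = 0.0108), or 1.35 (adjusted p = 0.0596) without Ly-6B+ array 1, 1.23 (adjusted p = 0.0767) without Ly-6B+ array 2 and 1.43 (adjusted p = 0.0527) without resident array 1. Cd80, Cd86 and Cd40 were not called, at 0.42 ± 0.16, -0.53 ± 0.18 and 0.08 ± 0.29. Of 32 interferon-stimulated genes, 1 was called, Ifit2 at 1.83 ± 0.48 (adjusted p = 0.0164), or 1.54 (adjusted p = 0.0915) without Ly-6B+ array 2 and 1.10 (adjusted p = 0.126) without resident array 1, and the median was 0.19. Of 12 genes of Fc receptors and their signalling, 0 were called and 6 had an unadjusted p under 0.05, with a median of -0.13, and Fcgr1 differed by -0.02 ± 0.21.

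Adhesion genes changed in both directions. Of 29 integrins and other adhesion genes, 4 were higher and 5 lower, with a median of -0.27. Cd9, a tetraspanin, read 2354, 3814 and 2886 on the Ly-6B+ and 9567, 10192 and 10957 on the resident arrays, a difference of -1.78 ± 0.34 (SE; adjusted p = 0.00154). The tetraspanin gene Cd81 read 2432, 1987 and 2424 on the Ly-6B+ and 6484, 7003 and 6297 on the resident arrays, a difference of -1.53 ± 0.34 (SE; adjusted p = 0.00542). The integrin beta chain gene Itgb1 read 2497, 2722 and 2125 on the Ly-6B+ and 7166, 6111 and 4195 on the resident arrays, a difference of -1.22 ± 0.26 (SE; adjusted p = 0.00437). These 3 did not overlap between the groups, and the other losses were Selp and Itgb3. Of the gains, Itgal, the alpha chain of LFA-1, read 738, 723 and 510.4 on the Ly-6B+ and 199, 293 and 169.7 on the resident arrays, a difference of 1.53 ± 0.22 (SE; adjusted p = 9.79e-05). Jam2, a junctional adhesion molecule, read 2571, 2579 and 2401 on the Ly-6B+ and 1013, 805 and 963 on the resident arrays, a difference of 1.43 ± 0.21 (SE; adjusted p = 8.3e-05). Itga1 was dim, at 82.2, 51.9 and 76.7 on the Ly-6B+ and 2.05, 18.4 and 8.60 on the resident arrays (1.82 ± 0.33, adjusted p = 0.00084). Among the integrins not called, Itgam, which encodes the sorting antigen CD11b, differed by -0.42 ± 0.20.

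Of 13 coagulation genes, 3 were higher and 4 lower, with a median of -0.08. F7, coagulation factor VII, read 5823, 6626 and 6197 on the Ly-6B+ and 2187, 2332 and 2806 on the resident arrays, a difference of 1.35 ± 0.26 (SE; adjusted p = 0.00137). F3, tissue factor, which starts clotting together with factor VII, read 512, 459.8 and 217 on the Ly-6B+ and 107, 129 and 164 on the resident arrays, a difference of 1.40 ± 0.38 (SE; adjusted p = 0.0229), or 1.18 (adjusted p = 0.122) without Ly-6B+ array 1, 1.25 (adjusted p = 0.0958) without Ly-6B+ array 2, 1.27 (adjusted p = 0.103) without resident array 1 and 1.39 (adjusted p = 0.0645) without resident array 2. F10, which they activate, was not called, at 14904, 16188 and 14659 on the Ly-6B+ and 13601, 14880.1 and 14619.6 on the resident arrays. The losses were F5, Serpinb2 and Pros1, given above or with the uptake genes, and the tissue factor inhibitor gene Tfpi at -1.05 ± 0.16 (adjusted p = 0.000167), or -0.95 (adjusted p = 0.00195) without resident array 2.

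Of 23 genes of growth factors and matrix, 2 were higher and 2 lower, with a median of -0.22. Vegfa, the vascular growth factor, read 298, 187 and 346 on the Ly-6B+ and 17.1, 13.9 and 49.1 on the resident arrays, a difference of 2.86 ± 0.32 (SE; adjusted p = 3.79e-06). Pdgfb read 310.3, 446 and 523 on the Ly-6B+ and 120.5, 128 and 102 on the resident arrays, a difference of 1.72 ± 0.27 (SE; adjusted p = 0.000212). Igf1 read 595, 887 and 1059 on the Ly-6B+ and 3242, 3087 and 3691 on the resident arrays and was lower by a factor of 3.94 on the mean (adjusted p = 0.000519). These 3 genes did not overlap between the groups, and Ltbp1 was the other loss. In the list of proteases and inhibitors, 3 of 21 were lower, Serpinb2, Serpinb6a (-1.62 ± 0.29, adjusted p = 0.000887) and the metalloprotease gene Adam8 (-1.25 ± 0.17, adjusted p = 3.86e-05).

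Of 45 transcription factors of myeloid cells tested, 4 were higher and 4 lower, beside 1.9% and 2.36% of all genes, with a median of 0.23. At an unadjusted p under 0.05, 17 were higher and 7 lower. Tox2 was the largest loss. Egr2, an early growth response factor, read 2479, 2955 and 1463 on the Ly-6B+ and 301, 674 and 349.7 on the resident arrays, a difference of 2.37 ± 0.52 (SE; adjusted p = 0.00495). Its relative Egr3 read 459, 449.8 and 242 on the Ly-6B+ and 61.7, 137 and 91.4 on the resident arrays, a difference of 1.84 ± 0.32 (SE; adjusted p = 0.000649). Egr3 was above every other array of the series on each Ly-6B+ array. The dioxin receptor gene Ahr read 932, 439.9 and 542 on the Ly-6B+ and 247, 198 and 308 on the resident arrays, a difference of 1.25 ± 0.27 (SE; adjusted p = 0.00449), or 0.94 (adjusted p = 0.0384) without Ly-6B+ array 1. Atf3 was given above. Hes1, a target of Notch, read 1289, 1056 and 848 on the Ly-6B+ and 2105, 3946 and 3302 on the resident arrays, a difference of -1.51 ± 0.28 (SE; adjusted p = 0.00106). Id1 was lower, at -1.27 ± 0.31 (adjusted p = 0.0108), or -1.14 (adjusted p = 0.0575) without resident array 2 and -1.05 (adjusted p = 0.0721) without resident array 3, and Gata6 was the other loss. Spi1, Cebpb, Irf8 and Klf4 were not called, at -0.07 ± 0.27, 0.23 ± 0.13, 0.21 ± 0.27 and 0.40 ± 0.16.

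Of 33 genes of the Wnt pathway tested, 6 were lower and 0 higher, beside 2.36% and 1.9% of all genes, with a median of -0.19. After the ligand gene Wnt2, the co-receptor gene Ryk fell most, at 57.1, 104 and 109 on the Ly-6B+ and 517, 437 and 503 on the resident arrays, a difference of -2.29 ± 0.26 (SE; adjusted p = 3.93e-06). The receptor gene Fzd1 read 1149, 977 and 766 on the Ly-6B+ and 2203, 1939 and 1900.2 on the resident arrays, a difference of -1.07 ± 0.18 (SE; adjusted p = 0.000343), or -0.91 (adjusted p = 0.00401) without Ly-6B+ array 3. The secreted inhibitor gene Sfrp1 read 78.6, 116 and 92.7 on the Ly-6B+ and 295, 269 and 269 on the resident arrays, a difference of -1.41 ± 0.20 (SE; adjusted p = 7.45e-05). The nuclear factor gene Tcf7l1 was lower, at -1.92 ± 0.38 (adjusted p = 0.00174). The dim receptor gene Fzd8, at 13.9, 16.3 and 17.8 on the Ly-6B+ and 64.7, 53.3 and 100.0 on the resident arrays, was lower, at -1.47 ± 0.39 (adjusted p = 0.0201), or -1.42 (adjusted p = 0.0667) without Ly-6B+ array 1, -1.47 (adjusted p = 0.0522) without Ly-6B+ array 2, -1.52 (adjusted p = 0.055) without resident array 1 and -1.25 (adjusted p = 0.104) without resident array 3. The central genes Ctnnb1, Gsk3b and Lrp6 were not called, at -0.03 ± 0.09, -0.20 ± 0.13 and -0.45 ± 0.15, nor was the target gene Axin2, at -0.89 ± 0.51.

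Of 28 ion channel genes, 2 were higher, Kcnn4 and Ryr1, and 2 lower, beside 1.9% and 2.36% of all genes, with a median of 0.08. Ryr1, a calcium release channel, read 545, 646 and 748 on the Ly-6B+ and 269.6, 271 and 244 on the resident arrays, a difference of 1.25 ± 0.16 (SE; adjusted p = 1.42e-05). The ATP-gated channel gene P2rx1 read 97.6, 162 and 152 on the Ly-6B+ and 667, 773 and 796 on the resident arrays, a difference of -2.34 ± 0.27 (SE; adjusted p = 5.68e-06). The calcium channel gene Cacna1a was lower, at -1.53 ± 0.39 (adjusted p = 0.0135), or -1.22 (adjusted p = 0.0866) without Ly-6B+ array 3 and -1.31 (adjusted p = 0.0916) without resident array 1. Of 18 purine receptors and ectonucleotidases, 3 were lower and 0 higher, with a median of -0.35. Nt5e, the ectonucleotidase CD73 that makes adenosine, read 293, 267 and 195 on the Ly-6B+ and 2056, 2502 and 2349 on the resident arrays, a difference of -3.13 ± 0.26 (SE; adjusted p = 5.27e-08). P2ry14, a receptor for UDP-glucose, read 94.7, 55.5 and 86.4 on the Ly-6B+ and 517, 484 and 467 on the resident arrays, a difference of -2.45 ± 0.25 (SE; adjusted p = 9.17e-07). None of these 5 genes overlapped between the groups.

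Of 21 genes of eicosanoids tested, 3 were higher (Ltb4r1, Ptgs2 and Akr1c18) and 2 lower, with a median of -0.056. Ptgis read 5319, 6799 and 4099.8 on the Ly-6B+ and 26054, 25261 and 26525 on the resident arrays, and its loss is given above. Pla2g7, which breaks down platelet-activating factor, read 2639.9, 3509 and 2247 on the Ly-6B+ and 6915, 8742 and 9364 on the resident arrays, a difference of -1.58 ± 0.24 (SE; adjusted p = 0.000109). Akr1c18 read 449.5, 324 and 418 on the Ly-6B+ and 166, 108 and 131 on the resident arrays, a difference of 1.46 ± 0.40 (SE; adjusted p = 0.0241), or 1.37 (adjusted p = 0.0894) without Ly-6B+ array 1, 1.42 (adjusted p = 0.0721) without Ly-6B+ array 3, 1.33 (adjusted p = 0.0922) without resident array 2 and 1.45 (adjusted p = 0.0656) without resident array 3. The leukotriene genes Alox5 and Alox5ap were not called, at -0.69 ± 0.24 and -0.26 ± 0.10.

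Of 25 glycolysis and hypoxia genes, 2 were higher and 1 lower, beside 1.9% and 2.36% of all genes, with a median of 0.13. The glucose carrier gene Slc2a1 read 731, 843 and 886 on the Ly-6B+ and 346, 352 and 392 on the resident arrays, a difference of 1.14 ± 0.18 (SE; adjusted p = 0.000158). Vegfa was the other gain. Egln3, an oxygen-sensing hydroxylase, read 189.6, 124 and 169 on the Ly-6B+ and 1009, 795 and 1004 on the resident arrays, a difference of -2.45 ± 0.31 (SE; adjusted p = 1.35e-05). Of 27 respiratory chain genes, 0 were called and 5 had an unadjusted p under 0.05, with a median of -0.15. In cholesterol and fatty acid synthesis, cytokine receptors, iron and heme, and antioxidants, the calls of Acvrl1, Cp, Gsr, Il7r, Scd2 and Sqle were each lost without any 1 of at least 3 of the 6 arrays. Those of Tfeb and Trem3 in the lysosomal and pattern lists were lost likewise, and the adjusted p over all these losses ran from 0.0359 to 0.252. Cp, called lower at -1.77, had 6 other probe sets, of which 5 were called lower in a fit on every probe set. The 6 ran from -2.33 to -0.75. Il21r, a cytokine receptor gene, read 245, 243 and 184 on the Ly-6B+ and 62.8, 62.1 and 47.7 on the resident arrays, a difference of 1.72 ± 0.30 (SE; adjusted p = 0.000699). Anxa5, which binds phosphatidylserine, read 4733, 6314 and 7181 on the Ly-6B+ and 3088, 2403 and 2830.5 on the resident arrays, a difference of 1.11 ± 0.15 (SE; adjusted p = 2.78e-05), or 0.98 (adjusted p = 0.000386) without Ly-6B+ array 3.

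Cell cycle genes had medians above that of all genes. Of 32 DNA replication genes, 0 were called by limma, 17 had an unadjusted p under 0.05, all higher, and the median was 0.69. Without Ly-6B+ array 3 or without resident array 2, 3 of them were called higher, and 1 was without resident array 3. Of 29 mitosis genes, 0 were called, 9 had an unadjusted p under 0.05, all higher, and the median was 0.83. Mki67, a marker of dividing cells, read 6753, 3178 and 3019 on the Ly-6B+ and 662, 2548 and 3536 on the resident arrays, a difference of 1.14 ± 0.54 (SE; adjusted p = 0.226). Ly-6B+ array 1 was high, resident array 1 was low, and the groups overlapped. The summed signal of the mitosis genes was 19180 to 43300 on the Ly-6B+ arrays and 6842 to 23820 on the resident arrays, and the ranges overlapped.

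Different probe sets of a gene did not always give the same call. Of the called genes of the lists and leading sets, 57 had another probe set that passed the filter. In a limma fit on every probe set, all other probe sets were called the same way in 32 of them, at least 1 was not called in 25, and 0 had one called the opposite way. In 19 genes no other probe set was called. Of the leading 24 genes these were Asz1, with 0.54 on its other probe set, and Cxcl9, with 0.84. The other probe set gave 0.11 for Cx3cr1, 0.18 for Clec4a2, -0.04 for Ahr, 0.49 for Egr3 and 1.40 for Egr2. It gave 0.54 for Napsa, 0.71 for Ptgs2, 0.50 for Pdgfb, 0.38 for Ms4a6c, 1.00 for Trem1, -0.72 for Sfrp1 and -0.48 for Fzd1. The 2 other probe sets of Slc2a1 gave 0.93 and 0.96, and Acvrl1, Gsr, Il7r and Scd2 were the remaining 4. Conversely, 18 list genes that were not called had another probe set that was, Marco and Ighm among them.

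Some genes put the Ly-6B+ macrophages outside the whole series. Of the called genes, 16 were higher on each Ly-6B+ array than on all the other 18 arrays, and 6 were lower; over all genes tested the counts were 69 and 32. Besides the class II genes, Egr3, Jam2, F3, F7, Axl, Scarf1 and Akr1c18, given above, were among the 16. The 6 at the other end were Pi16, Gcnt1, Tspan13, Cd209a, Tmem263 and Tmem156. Pi16 read 167, 233 and 128 on the Ly-6B+ and 1437, 1124 and 1090.0 on the resident arrays, a difference of -2.71 ± 0.19 (SE; adjusted p = 6.66e-09), with means of 1194 in bone marrow monocytes, 1086 at 4 h, 469.9 at 18 h, 1126 at 72 h and 1109 in Ly-6B- macrophages. Tspan13, a tetraspanin, read 599, 491 and 459.9 on the Ly-6B+ and 1924, 1716 and 1797 on the resident arrays, a difference of -1.79 ± 0.17 (SE; adjusted p = 2.57e-07). Gcnt1, which builds branched O-glycans, read 80.9, 51.2 and 50.4 on the Ly-6B+ and 205, 288 and 324 on the resident arrays, a difference of -1.92 ± 0.26 (SE; adjusted p = 3.86e-05). These 3 genes were thus lower than in both the monocytes and the resident cells. Tmem263 differed by -1.20 ± 0.18 (adjusted p = 0.00012) and Tmem156 by -1.06 ± 0.18 (adjusted p = 0.000411), or -0.96 (adjusted p = 0.00392) without Ly-6B+ array 2 and -0.95 (adjusted p = 0.00442) without resident array 3.

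Across all called genes, the levels of the other groups split by direction, as a description without a test. A group was counted on the Ly-6B+ side of a gene when its mean log2 value was nearer to the Ly-6B+ than to the resident mean. For the 231 genes called higher, this held for 73.6% in bone marrow monocytes, 79.2% at 4 h, 83.1% at 18 h, 56.3% at 72 h and 17.7% in Ly-6B- macrophages. For the 287 called lower, it held for 89.5%, 91.6% and 93.0% in the first 3 of these groups, for 10.5% at 72 h and for 3 genes in Ly-6B- macrophages. For most genes called lower, the mean at 72 h was therefore nearer to the resident than to the Ly-6B+ mean, while the genes called higher were split at that time.

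**Figure D5:**
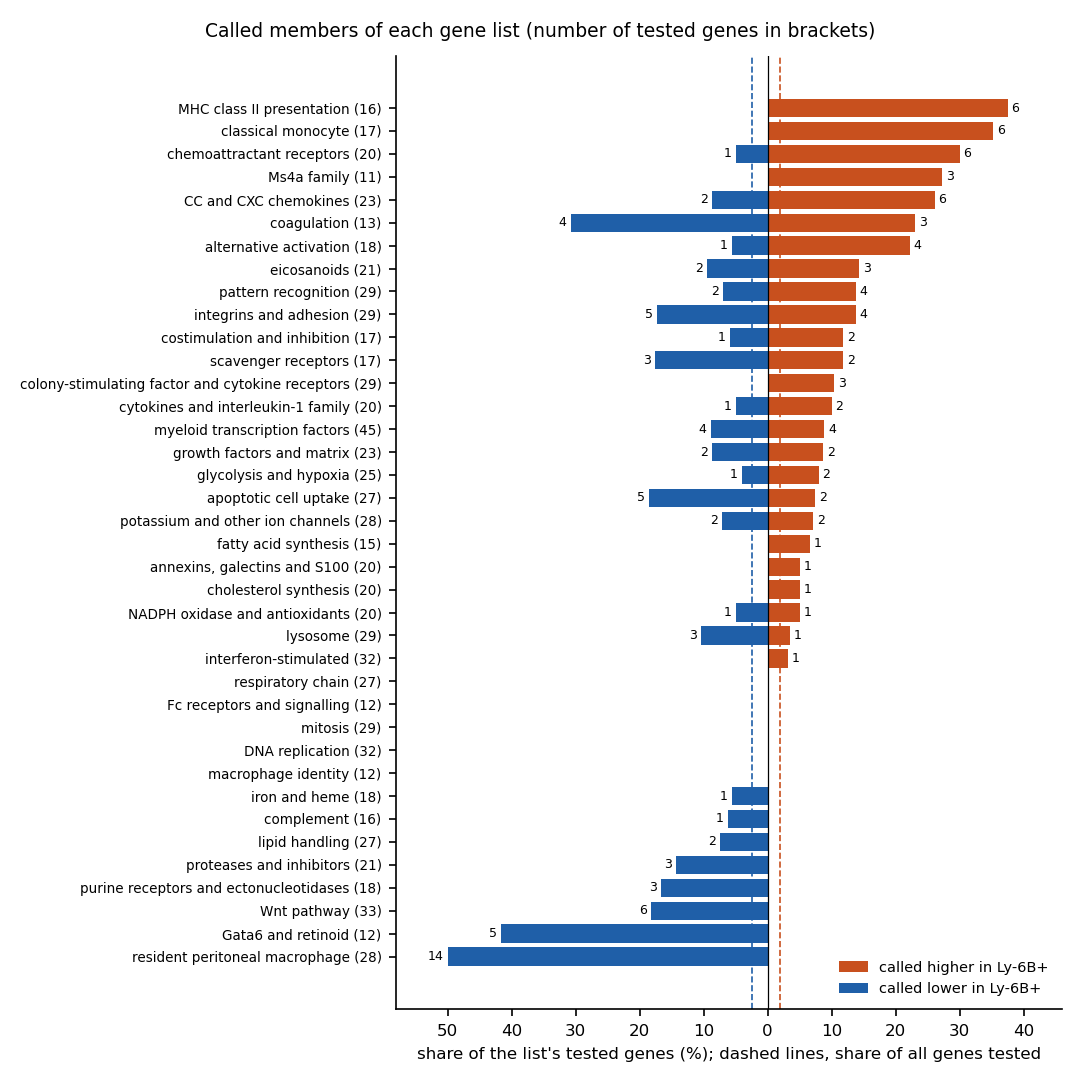
Share of each gene list's tested members that were called higher (orange, to the right) or lower (blue, to the left) in Ly-6B+ macrophages, with the number of genes at the end of each bar and the number tested in brackets; dashed lines mark the share over all genes, 1.9% and 2.36%. MHC class II and classical monocyte genes lie at the top and the Gata6 and resident macrophage lists at the bottom.

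Few markers of further cell types were called. Of 15 neutrophil genes, 1 was called, Cd177, at 1078, 1408 and 1440.4 on the Ly-6B+ and 335, 244 and 272 on the resident arrays (2.15 ± 0.17, adjusted p = 4.48e-08). The median of the 15 was 0.27, and 3 were higher and 2 lower at an unadjusted p under 0.05. In the fit on the 6 arrays alone 2 were called higher, Cd177 and S100a8, the latter at 1.192 ± 0.194 (adjusted p = 0.00434). S100a9 was not called there, at 1.195 ± 0.415 (adjusted p = 0.119). The 16 list genes with a probe set summed to 20450 to 20740 on the Ly-6B+ arrays and 20760 to 22000 on the resident arrays. The part of neutrophils in these results was not tested. Of the T and NK cell genes, 8 of 14 with a probe set did not pass the filter, the CD3 genes among them. The 14 summed to 1045 to 1160 on the Ly-6B+ and 551 to 785 on the resident arrays. Of the 6 tested, Cd2 was called at 2.46 ± 0.63 (adjusted p = 0.0148), or 2.34 (adjusted p = 0.0587) without Ly-6B+ array 1, 2.39 (adjusted p = 0.0531) without Ly-6B+ array 3 and 1.92 (adjusted p = 0.097) without resident array 2. Of 8 mast cell genes tested, Hdc alone was called. Cpa3, a mast cell protease, read 604, 398 and 439.9 on the Ly-6B+ and 182, 178 and 317 on the resident arrays. The summed signal of the list, most of it Hdc in the resident cells, was 1374 to 1532 on the Ly-6B+ and 2789 to 3672 on the resident arrays. Of 16 mesothelial and fibroblast genes, 13 did not pass the filter and 0 were called. Of 6 erythroid and platelet genes, 11 progenitor genes and 2 eosinophil genes, 0 were called and 0, 1 and 0 had an unadjusted p under 0.05. Of 12 ribosomal protein genes, 0 were called and 2 had an unadjusted p under 0.05, with a median of -0.14.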

How the data were processed

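RNA of 21 sorted cell samples in 7 groups of 3 was measured on Affymetrix mouse arrays of 45101 probe sets. The deposited values are linear MAS5 intensity signals, made by the authors with Affymetrix Expression Console 1.2, per the submitters' processing notes; the trimmed mean over the middle of each array (2% cut from each end) was 500 on all. Groups come from the sample titles. Probe sets were named from GEO's platform annotation: 34958 had 1 gene symbol, 932 several and 9211 were not listed. Each of the 18194 genes was taken by its single-symbol probe set of highest mean, and 12155 with a signal above the table's median (80.6) in at least 3 arrays were tested. limma 3.58.1 in R 4.3.3 was fitted with a trended variance on log2(signal + 15) over all arrays, with Benjamini-Hochberg adjustment. The script was tested on simulated data. The number of arrays limits the precision.

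The genes named were the 12 largest changes each way among called genes with no overlap, up to 3 called members each way of each gene list, up to 3 bright members of each list for other cells or handling, up to 8 called genes outside the other 18 arrays each way, a reference list with the 5 genes named for the comparison, and further list members by value. The members and lists were chosen with earlier results of these data known. Where nothing says that arrays came from separate mice, p-values measure the spread between samples only. List genes without a single-symbol probe set were not analysed here. Promoters are RefSeq windows.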

Additional observations from a re-analysis of the deposited data

How the results depend on the processing

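Against 231 genes higher and 287 lower in Ly-6B+ macrophages, the call rule moved the counts most. With no minimum fold, 497 were higher and 595 lower, and limma's treat, which tests against a 2-fold change, gave 32 and 69. A filter at the 75th percentile of the table, under which fewer genes are tested, gave 186 lower. Leaving out 1 array at a time gave 186 to 244 higher and 234 to 274 lower. Other pseudocounts, normalizations, filters, probe set rules, variance models, the Gapdh ratio as a covariate and the fit on the 6 arrays gave 174 to 324 higher and 234 to 331 lower. Over all genes tested, same-numbered arrays of the 2 groups hardly deviated together (correlations 0.0029, 0.0945 and -0.0100). Yet array 2 had the lowest 3' to 5' ratio of Gapdh in each of the 7 groups, such as 2.17 for Ly-6B+ and 2.04 for resident macrophages. Whether the numbers pair the samples is therefore not settled. With the replicate number as a block, all 21 arrays gave 245 and 300, and the 6 arrays 226 and 287. None of the 137 list and reference genes called reversed its direction under any alternative, and 51 kept their call under all of them. Some alternatives, such as limma's treat, leave the estimate as it is, and none used another probe set of a gene alone. On such a probe set 3 called genes had the opposite sign. Some genes that were not called changed sign. By limma's treat, 10 of the 28 resident genes were lower, and 4 of the 17 monocyte and 2 of the 16 class II genes were higher. A gain over resident signals at or below the table's median has an uncertain size.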
